A study of Mus musculus with 3 samples.

Results

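The 45 genes described here act when a cell copies its DNA and divides, and they were followed through the cell types of mouse ear skin. They form a given list, 45 of the 31053 genes in the count tables, and were not picked by a threshold on their values. Of them, 15 act in replication (8 in licensing and the replicative helicase, 4 in nucleotide supply, and 3 at the fork or in copying chromatin). The other 30 act in mitosis (8 cyclins, mitotic kinases and their partners, 6 genes of the kinetochore and spindle checkpoint, 2 of the anaphase promoting complex, 10 of the spindle and cytokinesis, and 4 of chromosome structure).

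Cells came from ears of untreated Langerin-DTA mice aged 8 weeks (adult Lang-DTA), untreated wild-type C57BL/6J mice aged 8 weeks (adult WT) and untreated wild-type C57BL/6J mice aged 4 weeks (young WT). Langerin-DTA mice carry the diphtheria toxin A chain under human Langerin regulatory sequence, which kills Langerhans cells, the antigen-presenting cells of the epidermis. Per the labels, hemizygous Langerin-DTA males were bred with wild-type females, and wild-type littermates served in experiments with the transgene. Animals of both sexes were pooled before sequencing: 4 male and 6 female mice made the adult Lang-DTA library, 6 male and 4 female the adult WT library, and 5 male and 3 female the young WT library. Lymphatic endothelial, blood endothelial, CD45-positive and other cells were sorted and then mixed in equal parts, and imiquimod-treated mice are not analysed here. Since each condition is 1 library of pooled mice, no test between conditions was possible. Every interval below is a 95% interval that covers counting error only, not the spread between mice or libraries.

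Before S phase, the MCM proteins are loaded onto replication origins by factors that include Cdc6, and together with the GINS complex they become the helicase that opens the DNA. Later, cyclin B with Cdk1 drives entry into mitosis, kinetochore and checkpoint genes attach and time the chromosomes, and the anaphase promoting complex starts their separation. E2F factors act mainly on promoters of replication genes, while DREAM and MuvB complexes act on those of mitosis genes through CHR elements and CCAAT boxes.

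Promoters of the 3 mitosis and 3 replication genes with the most UMIs among those with an entry are shown because these elements can be read in them. RefSeq promoters (GRCm38.p6, from 250 bases before to 50 after the annotated start) matched 37 of the 45 genes. Aurkb, Ccna2, Esco2, Gins2, Kif20a, Mcm4, Stmn1 and Tpx2 had no entry. Hmgb2 (chr8:57511593-57511892, plus strand), Mki67 (chr7:135716330-135716629, minus strand) and Top2a (chr11:99024140-99024439, minus strand) act in mitosis. Pcna (chr2:132253131-132253430, minus strand), Rrm1 (chr7:102441445-102441744, plus strand) and Mcm7 (chr5:138171834-138172133, minus strand) act in replication. Each sequence runs 5′ to 3′ along its gene. Capitals mark the words searched on both strands, which were CCAAT for the CCAAT box, TTTGAA for the CHR, and for E2F any of TTTCCCGC, TTTGGCGC, TTTCGCGC and TTTGCCGC.
Hmgb2: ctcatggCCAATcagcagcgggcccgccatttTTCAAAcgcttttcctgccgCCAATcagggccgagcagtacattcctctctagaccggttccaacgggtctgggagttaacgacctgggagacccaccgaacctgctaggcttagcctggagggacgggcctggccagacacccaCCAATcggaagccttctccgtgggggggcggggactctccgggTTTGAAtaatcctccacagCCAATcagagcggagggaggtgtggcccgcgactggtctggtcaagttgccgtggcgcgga
Mki67: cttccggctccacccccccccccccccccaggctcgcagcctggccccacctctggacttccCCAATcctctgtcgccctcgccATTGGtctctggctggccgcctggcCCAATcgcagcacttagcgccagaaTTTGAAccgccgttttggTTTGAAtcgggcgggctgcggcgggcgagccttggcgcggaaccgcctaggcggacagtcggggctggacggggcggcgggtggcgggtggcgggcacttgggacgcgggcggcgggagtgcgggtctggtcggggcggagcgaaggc
Top2a: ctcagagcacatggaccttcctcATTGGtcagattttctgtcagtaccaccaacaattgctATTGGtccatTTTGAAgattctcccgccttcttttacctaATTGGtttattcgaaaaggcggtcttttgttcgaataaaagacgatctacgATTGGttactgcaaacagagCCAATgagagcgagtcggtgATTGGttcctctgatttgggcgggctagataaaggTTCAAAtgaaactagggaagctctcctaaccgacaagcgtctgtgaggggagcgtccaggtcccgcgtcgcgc
Pcna: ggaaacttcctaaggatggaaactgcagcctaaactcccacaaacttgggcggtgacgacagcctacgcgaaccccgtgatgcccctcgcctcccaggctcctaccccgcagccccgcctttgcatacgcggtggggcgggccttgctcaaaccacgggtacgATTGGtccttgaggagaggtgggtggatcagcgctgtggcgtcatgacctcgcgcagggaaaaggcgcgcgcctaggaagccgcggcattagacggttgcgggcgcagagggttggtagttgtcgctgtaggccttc
Rrm1: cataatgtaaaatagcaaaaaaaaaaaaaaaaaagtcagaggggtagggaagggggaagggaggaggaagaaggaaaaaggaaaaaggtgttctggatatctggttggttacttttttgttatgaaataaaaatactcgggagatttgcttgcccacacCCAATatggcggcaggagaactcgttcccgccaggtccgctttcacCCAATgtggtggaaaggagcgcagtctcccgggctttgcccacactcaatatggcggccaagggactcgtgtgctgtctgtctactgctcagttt
Mcm7: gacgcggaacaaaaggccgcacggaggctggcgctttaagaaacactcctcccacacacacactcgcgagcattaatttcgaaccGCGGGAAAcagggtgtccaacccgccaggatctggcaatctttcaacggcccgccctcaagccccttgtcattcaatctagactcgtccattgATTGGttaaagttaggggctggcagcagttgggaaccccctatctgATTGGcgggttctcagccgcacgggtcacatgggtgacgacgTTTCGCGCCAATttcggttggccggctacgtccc

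The 3 mitosis promoters each held 2 CHR words, and the one nearest the start began 30 bases before it in Hmgb2, 98 in Mki67 and 23 in Top2a. They held 4, 3 and 6 CCAAT boxes in that order. Pcna held 1 CCAAT box and Rrm1 2, with no CHR or E2F word in either. Mcm7 held 3 CCAAT boxes and 2 E2F words, of which the second overlaps the last CCAAT box. Over all members with an entry, a CHR word stood in 1 of 12 replication genes and 20 of 25 mitosis genes, against 17.9% of all 32851 promoters. An E2F word stood in 5 of 12 replication genes and 2 of 25 mitosis genes, against 2.26% of all promoters. A CCAAT box stood in 9 of 12 replication genes and 22 of 25 mitosis genes, against 37.4% of all promoters. The replication genes with an E2F word were Mcm3, Mcm5, Mcm6, Mcm7 and Cdc6, all of the licensing and helicase group, and the mitosis genes were Cdk1 and Ncapg. A match describes letters and not a bound site, and no match says only that these letters are not in this window.

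After quality filters 12941 cells in adult Lang-DTA, 12621 cells in adult WT and 12399 cells in young WT were kept. The libraries held 124590777 UMIs in adult Lang-DTA, 128595813 UMIs in adult WT and 137441575 UMIs in young WT in total, with a median per barcode of 8189 UMIs in adult Lang-DTA, 7966 UMIs in adult WT and 9568 UMIs in young WT, where a UMI (unique molecular identifier) stands for 1 captured molecule. Pairs of libraries shared 39 to 50 cell barcodes. Cells were assigned by raw UMIs to 7 gates: lymphatic endothelial (Prox1 at least 2), blood endothelial (Cdh5 plus Ptprb at least 3, with Prox1 and Mmrn1 at 0), keratinocyte (Krt5 plus Krt14 at least 0.3% of UMIs), fibroblast (Dpt at least 2), chondrocyte (Col2a1 at least 3), Trdv4 T cell (Trdv4 at least 1, a receptor segment of dendritic epidermal T cells) and Cd207 (at least 2, the gene of Langerin). In each gate the marker genes of its own cell type had a higher summed level than those of the other types, except in the chondrocyte gate, where fibroblast markers were higher and the cartilage gene Matn1 was at 0. Doublets were not removed, and 314 cells in adult Lang-DTA, 301 cells in adult WT and 370 cells in young WT met several gates. The Cd207 gate held 10 cells in adult Lang-DTA and was compared only between adult WT and young WT.

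A cell was called cycling when its Mki67 and Top2a UMIs summed to at least 3. By this measure the conditions stood in different orders in different cell types. In the lymphatic endothelial gate 167 of 2367 cells were cycling in adult Lang-DTA (7.06%, exact interval 6.06 to 8.16%), against 11 of 1563 in adult WT (0.704%, 0.352 to 1.26%) and 108 of 4072 in young WT (2.65%, 2.18 to 3.19%). The ratio of adult Lang-DTA to adult WT was 10.0 (5.46 to 20.5), and the ratio of adult WT to young WT was 0.265 (0.129 to 0.494). In keratinocytes the genotype ratio ran the other way, with 8.94% in adult Lang-DTA, 12.2% in adult WT and 15.1% in young WT. There the ratio of adult Lang-DTA to adult WT was 0.733 (0.617 to 0.87) and that of adult WT to young WT 0.805 (0.672 to 0.967).

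Trdv4 T cells were cycling in 5.31% in adult Lang-DTA, 5.05% in adult WT and 16.1% in young WT. Adult WT was at 0.313 (0.242 to 0.4) of young WT, while the genotype ratio was 1.05 (0.767 to 1.44). Of these cycling cells 12 of 79 in adult Lang-DTA, 10 of 89 in adult WT and 21 of 242 in young WT also met another gate. They were not equally pure in the 3 libraries, as given below with the T cell levels. Blood endothelial cells were cycling in 2.0% in adult Lang-DTA, 1.37% in adult WT and 2.89% in young WT, a genotype ratio of 1.46 (0.969 to 2.2) and an age ratio of 0.473 (0.312 to 0.718). In the Cd207 gate 53 of 472 cells were cycling in adult WT (11.2%) and 175 of 640 in young WT (27.3%), a ratio of 0.411 (0.296 to 0.561). So adult WT was lower than young WT by more than counting error in these gates and in lymphatic cells and keratinocytes, while between genotypes the lymphatic and keratinocyte intervals exclude 1. Several of these calls depend on how cells were counted. With each cell thinned to 3000 UMIs and at least 2 marker UMIs required, the keratinocyte log2 genotype ratio was -0.19 (interval -0.48 to 0.10) and the log2 age ratio -0.32 (interval -0.64 to 0.0051), so that neither interval excluded 0. Median UMIs per keratinocyte were 11105 in adult Lang-DTA, 13650 in adult WT and 16138 in young WT. The keratinocyte log2 genotype ratio was -0.32 (interval -0.73 to 0.077) in cells called male and -0.38 (interval -0.76 to 0.00026) in cells called female by sex-specific genes. In blood endothelial cells the interval of the log2 genotype ratio excluded 0 after thinning, at 1.54 (interval 0.70 to 2.43), and with at least 5 marker UMIs, at 1.44 (interval 0.59 to 2.34).

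The other gates had few cycling cells. Fibroblasts had 5 of 495 in adult Lang-DTA, 5 of 387 in adult WT and 11 of 426 in young WT. Chondrocytes had 0 of 194 in adult Lang-DTA, where 3 counts would make 1.55% and the exact upper limit is 1.88%, 1 of 109 in adult WT (0.917%, interval 0.0232 to 5.01%) and 5 of 499 in young WT (1.0%). Where the Mki67 and Top2a of these cells came from was not tested. Chondrocytes had a median depth of 9668 UMIs in adult Lang-DTA, 12324 UMIs in adult WT and 14883 UMIs in young WT, against 9496 UMIs in adult Lang-DTA, 5171 UMIs in adult WT and 7992 UMIs in young WT in the lymphatic gate. All 5 cycling chondrocytes of young WT also met another gate. The adult WT interval rests on 1 cell and is too wide to set the lymphatic share of adult WT against it. Of the 11 cycling lymphatic cells of adult WT, 10 also held other listed genes, as described next, and 8 also met another gate. A droplet mixed with another cycling cell would hold those genes too, so they cannot tell it from a cycling lymphatic cell.

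**Figure D1:**
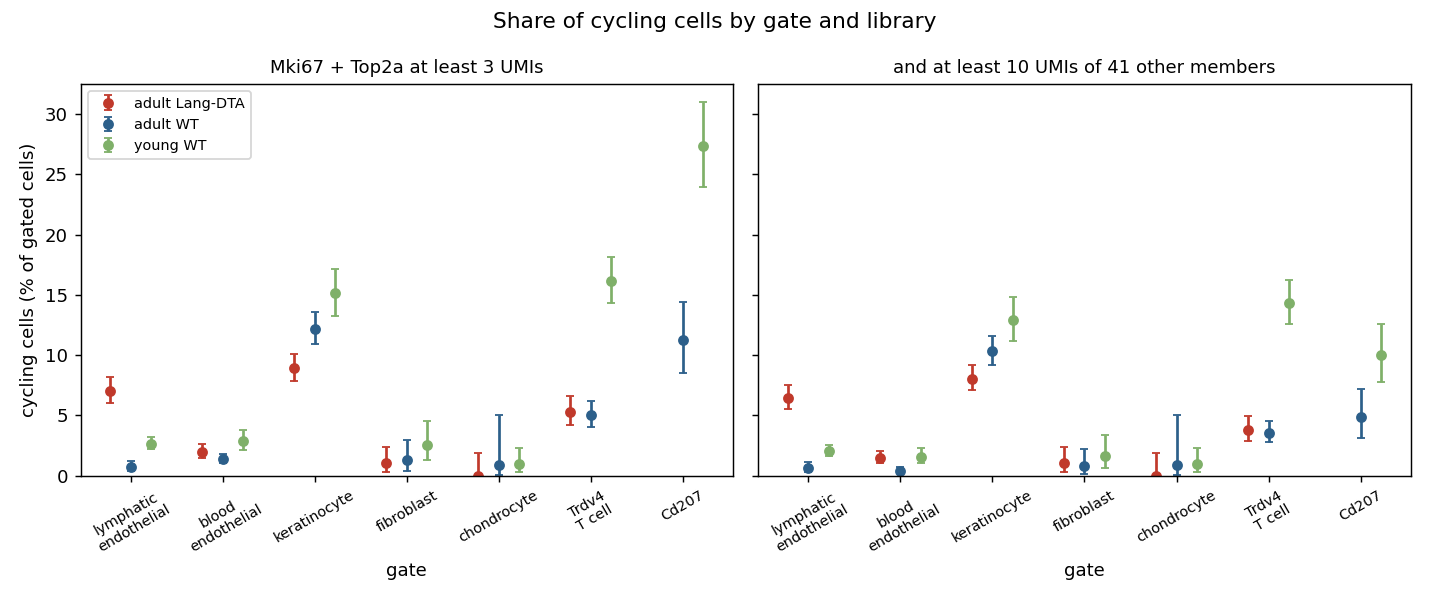
Share of cycling cells (percent of gated cells, with exact 95% counting intervals) by gate for adult Lang-DTA, adult WT and young WT, with at least 3 UMIs of Mki67 plus Top2a and, in the other panel, with at least 10 UMIs of 41 other listed genes as well. Lymphatic endothelial cells stand highest in adult Lang-DTA (7.06%), and the Cd207 gate of young WT is at 27.3% in one panel and 10% in the other.

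The same cells were then asked for other listed genes as well, a requirement chosen after the data were seen. It was at least 10 UMIs summed over 41 genes, which leaves out Mki67, Top2a, Hmgb2 and Stmn1. The lymphatic shares were then 6.46% in adult Lang-DTA, 0.64% in adult WT and 2.04% in young WT. In blood endothelial cells they were 1.47% in adult Lang-DTA, 0.428% in adult WT and 1.56% in young WT, and 33 of the 48 adult WT cells lacked the other genes at that level. The log2 genotype ratio of the blood endothelial share was 1.78 with both criteria, against 0.55 with the markers alone, and the log2 age ratio -1.87, against -1.08. In the Cd207 gate the shares were 4.87% in adult WT and 10% in young WT. There 111 of the 175 young WT cells lacked the other genes, and 116 had at least 3 Mki67 UMIs with Top2a at 0. By the other 41 genes alone, the log2 age ratio of the share was -0.65 in the Cd207 gate and -0.73 in T cells, against -1.28 and -1.68 by Mki67 and Top2a. The log2 genotype ratio in T cells was -0.63 (interval -0.90 to -0.37) by the 41 genes alone. In T cells this share cannot be read as one of cycling cells alone. The 41 genes include Rrm1 and Cenpa, which were high in T cells below the cycling mark. Of the 337 adult WT T cells that passed, 274 lacked Mki67 and Top2a at the mark. Median UMIs per T cell were 5876 in adult Lang-DTA, 7259 in adult WT and 9275 in young WT. The part of Rrm1, Cenpa and depth in this ratio was not tested. With both criteria the T cell log2 ratios were 0.10 between genotypes and -2.01 between ages.

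In lymphatic endothelial cells, 38 of the 45 genes were at least 2-fold higher in adult Lang-DTA than in adult WT and 0 at least 2-fold lower. Of all genes with at least 30 UMIs over both libraries, 12.5% were at least 2-fold higher, and 1311 of 14100 at least 2-fold lower. Between ages, 25 of the 45 were at least 2-fold lower in adult WT than in young WT, against 5.06% of all genes. Levels are given as counts per 1000000 UMIs of the gate (CPM). The 45 genes summed to 1711 CPM in adult Lang-DTA, 597 CPM in adult WT and 859 CPM in young WT. The median log2 ratio of the 45 genes was 2.58 between genotypes (all genes 0.036) and -1.10 between ages (all genes -0.095). Fewer cycling cells and less RNA per cell cannot be told apart in these sums.

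The helicase genes of lymphatic cells were higher in adult Lang-DTA and close to each other in both WT libraries. Mcm3 was at 61.1 CPM in adult Lang-DTA, 21.2 CPM in adult WT and 20.2 CPM in young WT. Its ratio of adult Lang-DTA to adult WT was 2.88 (interval 2.49 to 3.34). Mcm7 was at 37.1 CPM in adult Lang-DTA, 22 CPM in adult WT and 22.1 CPM in young WT. Mcm4 was at 23.7 CPM in adult Lang-DTA, 19.1 CPM in adult WT and 20.2 CPM in young WT, and Mcm6 at 23.6 CPM in adult Lang-DTA, 16.8 CPM in adult WT and 20.9 CPM in young WT. Of these abundant subunits Mcm3 differed most between genotypes. The lower Mcm2 was at 11.7 CPM in adult Lang-DTA, 4.7 CPM in adult WT and 5.07 CPM in young WT and Mcm5 at 6.2 CPM in adult Lang-DTA, 2.55 CPM in adult WT and 3.49 CPM in young WT. The loading factor Cdc6 was at 5.2 CPM in adult Lang-DTA, 1.53 CPM in adult WT and 1.64 CPM in young WT, and Gins2, a GINS subunit, at 6.76 CPM in adult Lang-DTA, 4.29 CPM in adult WT and 4.99 CPM in young WT. In all, 4 of 8 reached 2-fold between genotypes (Mcm2, Mcm3, Mcm5 and Cdc6) and 0 between ages, where the interval of the ratio spanned 1 for all but Mcm6 (log2 ratio -0.31).

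The nucleotide enzymes divided by subunit. Rrm2, the S phase subunit of ribonucleotide reductase, was at 15.9 CPM in adult Lang-DTA, 2.65 CPM in adult WT and 6.33 CPM in young WT, and its partner Rrm1 at 38.8 CPM in adult Lang-DTA, 25.1 CPM in adult WT and 30.6 CPM in young WT. Thymidine kinase, Tk1, was at 12.2 CPM in adult Lang-DTA, 1.63 CPM in adult WT and 4.53 CPM in young WT, and thymidylate synthase, Tyms, at 44.7 CPM in adult Lang-DTA, 20.1 CPM in adult WT and 22.5 CPM in young WT. Rrm2 and Tk1 were thus more than 2-fold apart in both comparisons and Rrm1 in neither. At the fork, Esco2, which acetylates cohesin on sister DNA, was at 10.4 CPM in adult Lang-DTA, 1.53 CPM in adult WT and 3.16 CPM in young WT, and Uhrf1, which helps to copy DNA methylation, at 11.3 CPM in adult Lang-DTA, 2.45 CPM in adult WT and 4.83 CPM in young WT. The sliding clamp Pcna was at 69.4 CPM in adult Lang-DTA, 90.0 CPM in adult WT and 72.3 CPM in young WT. Pcna was the only one of the 45 genes with a negative log2 genotype ratio in this gate (-0.38).

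All 8 cyclins and mitotic kinases were at least 2-fold apart in both lymphatic comparisons. Ccnb2, a B-type cyclin, was at 47.7 CPM in adult Lang-DTA, 4.39 CPM in adult WT and 13.3 CPM in young WT. Cdk1, the kinase that B-type cyclins activate, was at 21.6 CPM in adult Lang-DTA, 1.63 CPM in adult WT and 7.28 CPM in young WT. Birc5 (survivin), which holds Aurkb at centromeres, was at 30.6 CPM in adult Lang-DTA, 2.76 CPM in adult WT and 11.9 CPM in young WT. The order adult Lang-DTA, young WT, adult WT was the same in each. Ccna2, the cyclin of S and G2 phase, was at 15.1 CPM in adult Lang-DTA, 1.63 CPM in adult WT and 6.44 CPM in young WT. Aurkb had the widest ratios of the list and rested on few molecules, 221 UMIs in adult Lang-DTA, 3 UMIs in adult WT and 108 UMIs in young WT. Its ratio of adult Lang-DTA to adult WT was 28.9 (interval 9.75 to 141).

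Kinetochore and anaphase genes followed the same order. Cenpf, a large kinetochore protein, was at 82 CPM in adult Lang-DTA, 9.29 CPM in adult WT and 33.3 CPM in young WT, and the kinetochore motor Cenpe at 42.1 CPM in adult Lang-DTA, 6.53 CPM in adult WT and 17.6 CPM in young WT. Cenpa, the centromeric histone, was at 39.7 CPM in adult Lang-DTA, 15.7 CPM in adult WT and 27.7 CPM in young WT. The checkpoint protein Bub1b was at 10.6 CPM in adult Lang-DTA, 3.67 CPM in adult WT and 5.48 CPM in young WT. Cenpa and Bub1b were the 2 genes of this group under 2-fold between ages. Ube2c, the ubiquitin-conjugating enzyme of the anaphase promoting complex, was at 40.4 CPM in adult Lang-DTA, 2.55 CPM in adult WT and 14.3 CPM in young WT. Its ratio of adult Lang-DTA to adult WT was 15.8 (interval 10.7 to 24.6). Its activator Cdc20 was at 30.5 CPM in adult Lang-DTA, 5.21 CPM in adult WT and 13.6 CPM in young WT.

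Of the spindle and cytokinesis genes all 10 were at least 2-fold higher in adult Lang-DTA than in adult WT, and 5 were at least 2-fold lower in adult WT than in young WT. Prc1, which bundles microtubules of the spindle midzone, was at 70.6 CPM in adult Lang-DTA, 7.86 CPM in adult WT and 23.8 CPM in young WT. Anln (anillin), of the contractile ring, was at 40.3 CPM in adult Lang-DTA, 9.08 CPM in adult WT and 13.1 CPM in young WT. Nusap1, a spindle microtubule binding protein, was at 42.3 CPM in adult Lang-DTA, 8.06 CPM in adult WT and 9.55 CPM in young WT. Stmn1, which destabilises microtubules, was at 138 CPM in adult Lang-DTA, 53.1 CPM in adult WT and 109 CPM in young WT. Nusap1 differed least between ages in this group (log2 ratio -0.24) and Stmn1 least between genotypes (1.37).

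Chromosome structure genes were split between 3 that followed the cycling share and Hmgb2. For Mki67, which coats mitotic chromosomes, the level was 97.5 CPM in adult Lang-DTA, 15.8 CPM in adult WT and 50.4 CPM in young WT. Top2a, which untangles sister DNA, stood at 103 CPM in adult Lang-DTA, 16.9 CPM in adult WT and 36.4 CPM in young WT. Both genes define the cycling cells, so their levels are not independent of the share. Ncapg, a condensin subunit, was at 8.44 CPM in adult Lang-DTA, 0.817 CPM in adult WT and 3.49 CPM in young WT. Hmgb2, a DNA-bending protein, was at 252 CPM in adult Lang-DTA, 161 CPM in adult WT and 132 CPM in young WT and was the only mitosis gene higher in adult WT than in young WT (log2 ratio 0.29). As classes, mitosis genes had median log2 ratios of 2.82 between genotypes and -1.58 between ages, and replication genes 1.28 and -0.22.

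**Figure D2:**
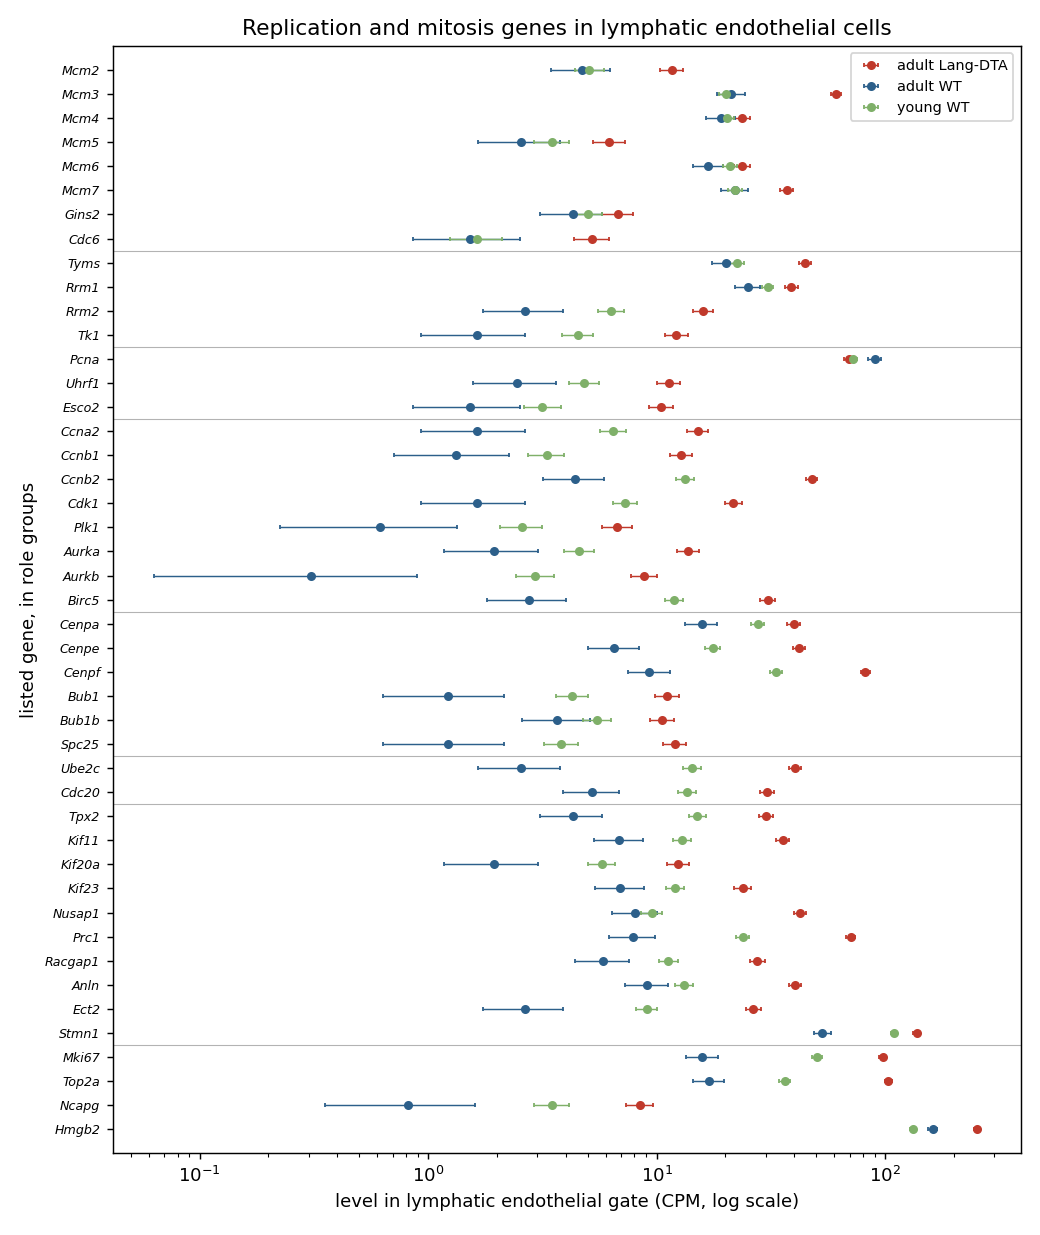
Level of each of the 45 genes in the lymphatic endothelial gate (CPM, log axis, with exact 95% Poisson intervals) for adult Lang-DTA, adult WT and young WT, by role. Pcna is the only gene whose adult Lang-DTA level (69.4 CPM) lies below that of adult WT (90.0 CPM), and Aurkb has the widest gap (8.84 CPM in adult Lang-DTA and 0.306 CPM in adult WT).

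The lymphatic cycling cells were not equally pure in the 3 libraries. Of them 20 of 167 in adult Lang-DTA, 8 of 11 in adult WT and 20 of 108 in young WT also met another gate. In cycling cells 7 keratinocyte markers summed to 1398 CPM in adult Lang-DTA, 9088 CPM in adult WT and 1459 CPM in young WT. Over the whole gate they summed to 653 CPM in adult Lang-DTA, 1083 CPM in adult WT and 486 CPM in young WT. Langerhans cell markers, 6 genes, summed in cycling cells to 378 CPM in adult Lang-DTA, 1640 CPM in adult WT and 3555 CPM in young WT, and over the gate to 364 CPM in adult Lang-DTA, 614 CPM in adult WT and 865 CPM in young WT. The cycling lymphatic cells that also met the Cd207 gate numbered 0 in adult Lang-DTA, 1 in adult WT and 9 in young WT. In the cycling cells 7 lymphatic markers summed to 5963 CPM in adult Lang-DTA, 5863 CPM in adult WT and 8664 CPM in young WT, and over the gate to 6402 CPM in adult Lang-DTA, 14425 CPM in adult WT and 10863 CPM in young WT. The part of mixed droplets in the share over the whole gate was not tested. Cells that met the lymphatic gate alone were cycling in 6.47% in adult Lang-DTA, 0.2% in adult WT and 2.25% in young WT, with 3 such cells in adult WT. The log2 ratio of the share was then 5.02 between genotypes and -3.49 between ages, against 3.33 and -1.91 over the gate. The log2 age ratio of the summed level was -0.85, against -0.52. Male-called cells were cycling in 5.82% in adult Lang-DTA, 0.426% in adult WT and 2.17% in young WT, and female-called cells in 6.96% in adult Lang-DTA, 0.873% in adult WT and 2.86% in young WT. With each cell thinned to 3000 UMIs and at least 2 marker UMIs required, the shares were 6.06% in adult Lang-DTA, 0.534% in adult WT and 2.01% in young WT, and 173 shallower cells in adult Lang-DTA, 252 shallower cells in adult WT and 286 shallower cells in young WT were left out.

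Blood endothelial cells had the same directions at smaller size. Between genotypes 23 of the 45 genes were at least 2-fold higher in adult Lang-DTA, against 3.11% of all genes. Between ages 18 were at least 2-fold lower in adult WT, against 3.8% of all genes, or 31 of 45 genes tested (all genes 4.0%) in cells of that gate alone. Replication genes were close together: Mcm3 was at 25.6 CPM in adult Lang-DTA, 21.7 CPM in adult WT and 25.8 CPM in young WT, and Rrm1 at 29.4 CPM in adult Lang-DTA, 30.8 CPM in adult WT and 29.8 CPM in young WT. Mcm4 was at 20.1 CPM in adult Lang-DTA, 20.7 CPM in adult WT and 24.1 CPM in young WT. Pcna, at 88.4 CPM in adult Lang-DTA, 103 CPM in adult WT and 97.5 CPM in young WT, was lower in adult Lang-DTA than in adult WT, as it was in lymphatic cells. Rrm2, at 6.81 CPM in adult Lang-DTA, 2.22 CPM in adult WT and 6.11 CPM in young WT, and Esco2, at 3.71 CPM in adult Lang-DTA, 1.1 CPM in adult WT and 2.58 CPM in young WT, were at least 2-fold apart in both comparisons.

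Mitosis genes of blood endothelial cells were lowest in adult WT, with Hmgb2 and Kif11 as exceptions. Ccnb2 was at 9.95 CPM in adult Lang-DTA, 2.99 CPM in adult WT and 6.66 CPM in young WT, Cdk1 at 7.95 CPM in adult Lang-DTA, 2.52 CPM in adult WT and 5.86 CPM in young WT and Birc5 at 8.27 CPM in adult Lang-DTA, 2.52 CPM in adult WT and 7.16 CPM in young WT. Cenpf was at 15.7 CPM in adult Lang-DTA, 5.43 CPM in adult WT and 14.9 CPM in young WT. The checkpoint kinase Bub1 had the widest ratios of the gate, on 71 UMIs in adult Lang-DTA, 19 UMIs in adult WT and 44 UMIs in young WT. Its ratio of adult Lang-DTA to adult WT was 5.56 (interval 3.31 to 9.76), and that of adult WT to young WT 0.238 (interval 0.131 to 0.417). Mki67 stood at 41.4 CPM in adult Lang-DTA, 13.7 CPM in adult WT and 37.7 CPM in young WT. Hmgb2 was at 197 CPM in adult Lang-DTA, 154 CPM in adult WT and 134 CPM in young WT, and the spindle motor Kif11 at 11.9 CPM in adult Lang-DTA, 9.29 CPM in adult WT and 9.0 CPM in young WT.

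Markers of other cell types differed between the cycling blood endothelial cells of the libraries. Keratinocyte markers summed there to 2067 CPM in adult Lang-DTA, 4216 CPM in adult WT and 100.4 CPM in young WT, and over the gate to 814 CPM in adult Lang-DTA, 616 CPM in adult WT and 430.4 CPM in young WT. Langerhans cell markers summed in the cycling cells to 177 CPM in adult Lang-DTA, 1001 CPM in adult WT and 1029 CPM in young WT, and over the gate to 164 CPM in adult Lang-DTA, 295 CPM in adult WT and 353 CPM in young WT. Of the cycling cells 10 of 53 in adult Lang-DTA, 12 of 48 in adult WT and 7 of 50 in young WT met another gate. Their part in the blood endothelial values was not tested.

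The blood endothelial genotype difference was uneven between the sexes. In female-called cells 33 of 43 genes tested (all genes 3.84%) were at least 2-fold higher in adult Lang-DTA than in adult WT, and in male-called cells 6 of 37 genes tested (all genes 2.1%). Of female-called cells 2.47% were cycling in adult Lang-DTA and 0.908% in adult WT. Of male-called cells 9 of 759 were cycling in adult Lang-DTA (1.19%, exact interval 0.544 to 2.24%). In adult WT 27 of 1624 were (1.66%, exact interval 1.10 to 2.41%). The log2 genotype ratio of the share was 1.44 (interval 0.42 to 2.58) in female-called cells. In male-called cells it was -0.49 (interval -1.76 to 0.64), which includes 0, so a turn in direction was not shown beyond counting error. The log2 genotype ratio of the summed level was 0.93 in female-called and 0.094 in male-called cells. The pools held different numbers of male and female mice, and the part of sex in this result was not tested.

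In Trdv4 T cells many listed genes were apart by age and few by genotype at the 2-fold level. Of the 45 genes 32 were at least 2-fold lower in adult WT than in young WT, against 4.14% of all genes. Between genotypes 0 were at least 2-fold lower in adult Lang-DTA, against 0.785% of all genes, or 5 of 40 genes tested (all genes 2.15%) in male-called cells. Mcm3 was at 22 CPM in adult Lang-DTA, 25.5 CPM in adult WT and 48.7 CPM in young WT, and Mcm4 at 25.4 CPM in adult Lang-DTA, 27.2 CPM in adult WT and 50.4 CPM in young WT. Mcm6 was at 26.8 CPM in adult Lang-DTA, 27 CPM in adult WT and 45.8 CPM in young WT and Mcm2 at 8.3 CPM in adult Lang-DTA, 11.3 CPM in adult WT and 22.2 CPM in young WT. Mcm7, at 22.7 CPM in adult Lang-DTA, 25.4 CPM in adult WT and 30.0 CPM in young WT, differed least of the helicase genes between ages.

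Mitosis genes of T cells were farther apart by age than replication genes, with median log2 ratios of -1.59 and -0.98. Birc5 was at 15.3 CPM in adult Lang-DTA, 17.9 CPM in adult WT and 56.7 CPM in young WT, Ccnb2 at 15.9 CPM in adult Lang-DTA, 16.1 CPM in adult WT and 44.5 CPM in young WT and Cdk1 at 10.4 CPM in adult Lang-DTA, 11.8 CPM in adult WT and 40.3 CPM in young WT. Ube2c was at 20.6 CPM in adult Lang-DTA, 23.4 CPM in adult WT and 116 CPM in young WT. Plk1, a kinase of spindle assembly, was at 4.06 CPM in adult Lang-DTA, 1.6 CPM in adult WT and 11.3 CPM in young WT, and was the 1 gene at least 2-fold higher in adult Lang-DTA than in adult WT, on 43 UMIs in adult Lang-DTA and 23 UMIs in adult WT. The share of all genes that were higher in this way is not given here, so the count is not read as a result about the list. Mki67 stood at 78.6 CPM in adult Lang-DTA, 90.2 CPM in adult WT and 334 CPM in young WT and Top2a at 77.9 CPM in adult Lang-DTA, 117 CPM in adult WT and 252 CPM in young WT. In cycling T cells 6 T cell markers summed to 6808 CPM in adult Lang-DTA, 6120 CPM in adult WT and 10521 CPM in young WT. Over the gate they summed to 10536.5, 10490 and 10537 CPM in that order. Langerhans cell markers summed to 5928, 2083 and 2395 CPM in cycling cells and to 1223, 867 and 944 CPM over the gate. Keratinocyte markers summed to 1768, 2840 and 947 CPM in cycling cells and to 1213, 1028 and 738 CPM over the gate. The part of mixed droplets in the T cell values was not tested.

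Rrm1 and Cenpa were high in T cells below the cycling mark too. Rrm1 was at 233 CPM in adult Lang-DTA, 293 CPM in adult WT and 245 CPM in young WT, and in T cells below the cycling mark at 233 CPM in adult Lang-DTA, 293 CPM in adult WT and 196 CPM in young WT. In cells below the mark of the lymphatic gate it was at 22.1 CPM in adult Lang-DTA, 23.2 CPM in adult WT and 24.6 CPM in young WT, and of the keratinocyte gate at 31.6 CPM in adult Lang-DTA, 34.7 CPM in adult WT and 34.8 CPM in young WT. Its partner Rrm2 was at 2.29 CPM in adult Lang-DTA, 2.96 CPM in adult WT and 4.76 CPM in young WT in T cells below the mark. Cenpa in T cells below the mark was at 80.3 CPM in adult Lang-DTA, 95 CPM in adult WT and 125 CPM in young WT, against 7.92 CPM in adult Lang-DTA, 12.7 CPM in adult WT and 13.9 CPM in young WT in the lymphatic gate. Below the mark, Rrm1 was thus higher in T cells than in the lymphatic and keratinocyte gates in all 3 libraries, and Cenpa higher than in the lymphatic gate.

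In the Cd207 gate 21 of the 45 genes were at least 2-fold lower in adult WT than in young WT, against 3.96% of all genes, or 13 of 42 genes tested (all genes 4.9%) in female-called cells. Here replication and mitosis genes were equally far apart, with median log2 ratios of -0.97 and -0.95. Mcm3 was at 10.4 CPM in adult WT and 29.5 CPM in young WT, Mcm5 at 2.61 CPM in adult WT and 8.75 CPM in young WT and Esco2 at 2.15 CPM in adult WT and 8.53 CPM in young WT. Pcna was at 95.5 CPM in adult WT and 103 CPM in young WT. Birc5 was at 14.6 CPM in adult WT and 33 CPM in young WT, Ccnb2 at 16.9 CPM in adult WT and 28.4 CPM in young WT and Ccna2 at 3.53 CPM in adult WT and 11.9 CPM in young WT. Hmgb2, at 259.8 CPM in adult WT and 257 CPM in young WT, was level, and Nusap1, at 16.3 CPM in adult WT and 19.5 CPM in young WT, nearly so. Mki67 stood at 82 CPM in adult WT and 228 CPM in young WT. In this gate 7 keratinocyte markers summed to 1028 CPM in adult WT and 342 CPM in young WT, and their part in these levels was not tested.

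Keratinocytes had high levels and small differences. The 45 genes summed to 2597 CPM in adult Lang-DTA, 3004 CPM in adult WT and 2907 CPM in young WT. Between ages 0 of 45 were at least 2-fold lower in adult WT, against 2.94% of all genes, and between genotypes 0 were at least 2-fold lower in adult Lang-DTA, against 1.26% of all genes. All 30 mitosis genes had a log2 genotype ratio below 0, with a median of -0.23 and a range of -0.52 to -0.084. In female-called cells the log2 genotype ratio of the summed level was 0.039 and in male-called cells -0.43. No interval is given here for these ratios, so a turn in direction with sex was not shown. The log2 genotype ratio of the cycling share was -0.38 in female-called and -0.32 in male-called cells, both with intervals that include 0.

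Helicase genes of keratinocytes were highest in young WT for 6 of 8 and close in both adult libraries. Mcm4 was at 35.7 CPM in adult Lang-DTA, 35.5 CPM in adult WT and 52.9 CPM in young WT, Mcm6 at 34.4 CPM in adult Lang-DTA, 32 CPM in adult WT and 40.3 CPM in young WT and Mcm5 at 9.72 CPM in adult Lang-DTA, 10.4 CPM in adult WT and 16.3 CPM in young WT. Mcm7, at 39.3 CPM in adult Lang-DTA, 49 CPM in adult WT and 33.7 CPM in young WT, was highest in adult WT. Among mitosis genes Nusap1, at 61.7 CPM in adult Lang-DTA, 88.7 CPM in adult WT and 45.5 CPM in young WT, had the largest age ratio upward (log2 ratio 0.96). Top2a stood at 183 CPM in adult Lang-DTA, 259 CPM in adult WT and 180.0 CPM in young WT, and Mki67 at 165 CPM in adult Lang-DTA, 198 CPM in adult WT and 257 CPM in young WT. Of these 2 markers of cycling cells, Top2a was higher and Mki67 lower in adult WT than in young WT. Birc5 was at 39.1 CPM in adult Lang-DTA, 46 CPM in adult WT and 51.3 CPM in young WT, and Stmn1 at 232 CPM in adult Lang-DTA, 266 CPM in adult WT and 271 CPM in young WT.

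In fibroblasts 35 of the 45 genes had at least 30 UMIs for age, and 10 of these were at least 2-fold lower in adult WT, against 4.85% of all genes. The count was 5 of 18 genes tested (all genes 4.49%) in cells of that gate alone and 0 of 12 genes tested (all genes 4.15%) in male-called cells. Cenpf was at 2.64 CPM in adult Lang-DTA, 6.07 CPM in adult WT and 24.5 CPM in young WT, and Pcna at 45.6 CPM in adult Lang-DTA, 46 CPM in adult WT and 48.2 CPM in young WT.

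**Figure D3:**
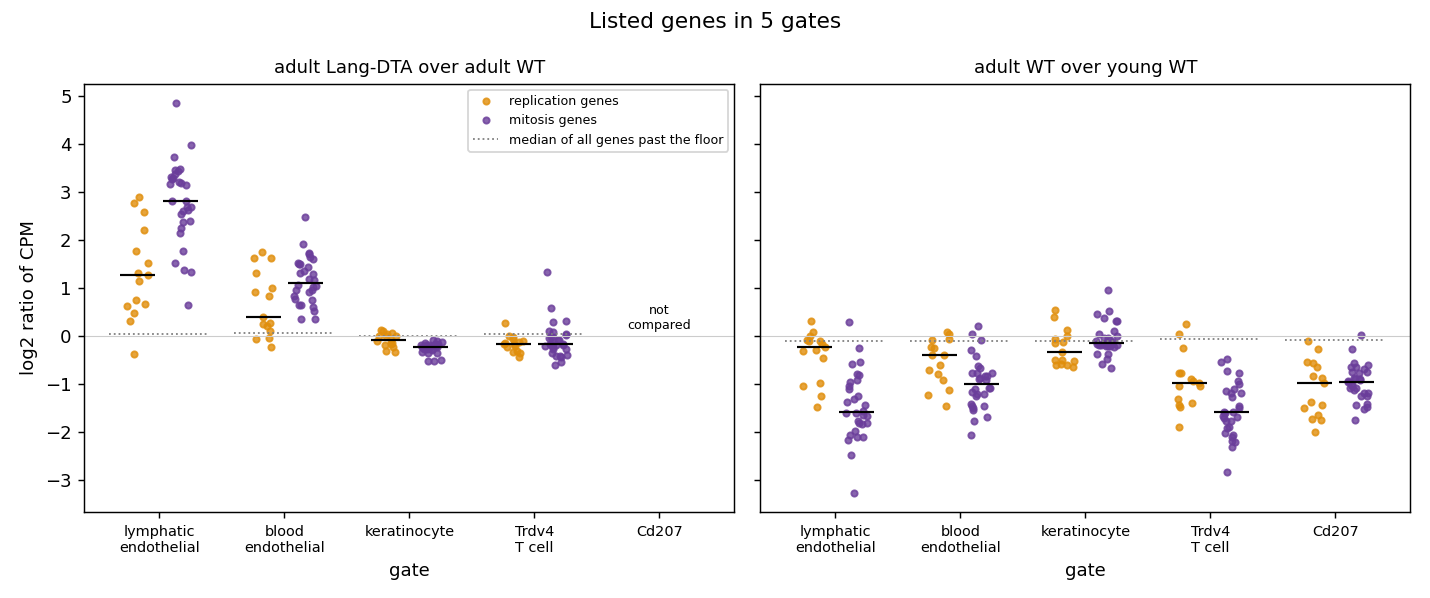
Log2 ratio of CPM for the 15 replication and 30 mitosis genes by gate, adult Lang-DTA over adult WT in one panel and adult WT over young WT in the other, with bars at the medians and dotted lines at the median of all genes. Between genotypes the mitosis genes of lymphatic cells lie farthest from 0 (median 2.82), and between ages those of T cells (median -1.59) and lymphatic cells (median -1.58) do.

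The difference in summed level of lymphatic cells lay mostly in the cycling cells. In lymphatic cells below the cycling mark the 45 genes summed to 516 CPM in adult Lang-DTA, 459 CPM in adult WT and 442 CPM in young WT. In cycling cells they summed to 11845 CPM in adult Lang-DTA, 7857 CPM in adult WT and 9243 CPM in young WT. Cycling cells gave 73% in adult Lang-DTA, 24.6% in adult WT and 51% in young WT of the listed UMIs of the gate. The mark itself uses Mki67 and Top2a, so the division of those genes follows from it. In adult Lang-DTA lymphatic cells 99.2% of Esco2, 98.2% of Bub1 and 94.8% of Cdk1 UMIs lay in cycling cells, against 22.5% of Pcna and 21.7% of Mcm3, genes named after their shares were seen. Mcm3 below the mark was at 53.5 CPM in adult Lang-DTA, 20.3 CPM in adult WT and 18 CPM in young WT. It thus differed between genotypes below the mark too. Some lymphatic cells below the mark held at least 10 UMIs summed over other listed genes, Mcm3 included. They numbered 133 of 2367 gated cells in adult Lang-DTA, 18 of 1563 in adult WT and 80 of 4072 in young WT. The part of these cells in the Mcm3 difference was not tested. In T cells below the mark the 45 genes summed to 844 CPM in adult Lang-DTA, 974 CPM in adult WT and 898 CPM in young WT, in keratinocytes to 728 CPM in adult Lang-DTA, 701 CPM in adult WT and 681 CPM in young WT and in blood endothelial cells to 447 CPM in adult Lang-DTA, 451 CPM in adult WT and 432 CPM in young WT.

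**Figure D4:**
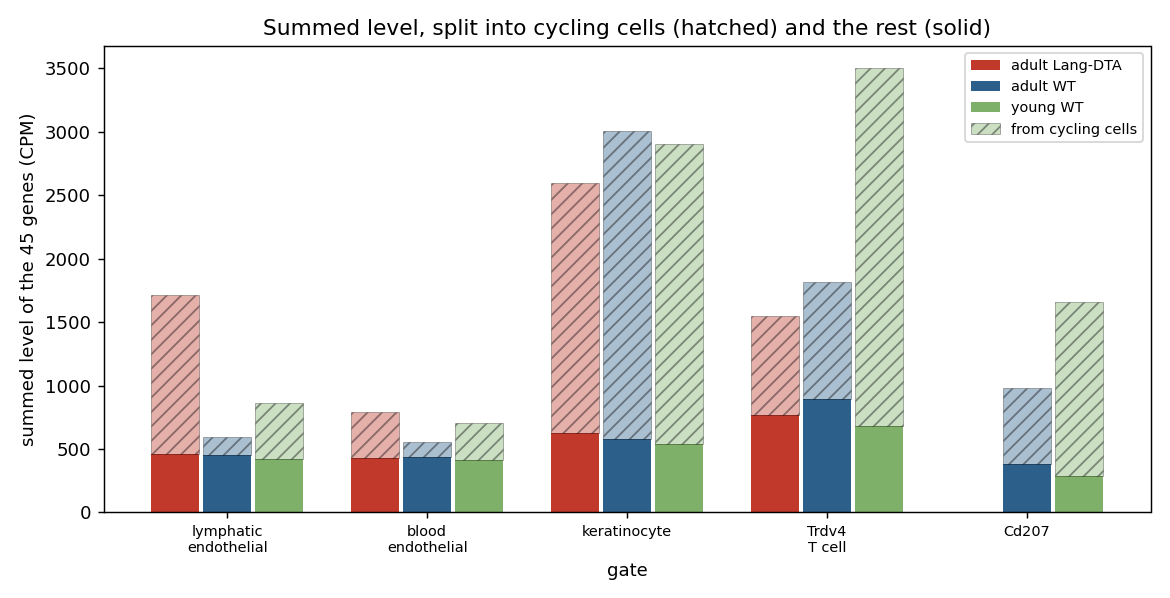
Summed level of the 45 genes (CPM) by gate for adult Lang-DTA, adult WT and young WT, with UMIs of cycling cells hatched and those of other cells solid, both per 1000000 UMIs of the gate. Whole bars in lymphatic cells stand at 1711 CPM in adult Lang-DTA, 597 CPM in adult WT and 859 CPM in young WT.

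Mki67 and Top2a were not in the same balance in every library. Over all cells the number of Mki67 UMIs per Top2a UMI was 0.974 in adult Lang-DTA, 0.818 in adult WT and 1.51 in young WT. In keratinocytes it was 0.9 in adult Lang-DTA, 0.762 in adult WT and 1.43 in young WT, and in T cells 1.01 in adult Lang-DTA, 0.768 in adult WT and 1.32 in young WT. In lymphatic cells it was 0.943 in adult Lang-DTA, 0.934 in adult WT and 1.38 in young WT. Young WT was highest in each of these 3 gates. Other genes also kept one side of the list between ages. Mcm7, Cdc6, Tyms, Rrm1, Pcna, Kif23, Nusap1, Anln and Hmgb2 had log2 age ratios above the median of the 45 genes in all 5 gates, and Ccna2, Plk1, Cdc20, Kif20a, Ect2, Mki67 and Ncapg below it. Nusap1 stood 0.694 to 1.12 above it on the log2 scale. These genes were picked after their values were seen, and all gates share the same libraries.

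**Figure D5:**
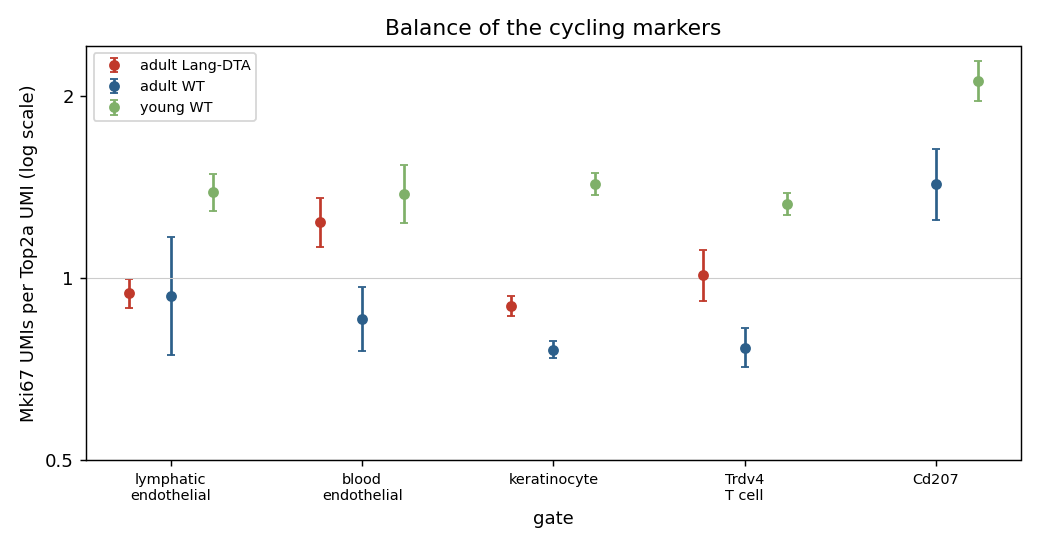
Mki67 UMIs per Top2a UMI (log axis, with exact 95% intervals) by gate for adult Lang-DTA, adult WT and young WT. Young WT is highest in each gate drawn, at 1.32 in T cells and 2.11 in the Cd207 gate.

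Other genes of the same pathways were counted in the same way. Of 52 other mitosis genes, 44 were at least 2-fold higher in adult Lang-DTA lymphatic cells than in adult WT, and 30 at least 2-fold lower in adult WT than in young WT. Of all genes 12.5% and 5.06% were. Of 38 other replication genes the counts were 19 and 4. Smc4, a condensin subunit, was at 295 CPM in adult Lang-DTA, 209 CPM in adult WT and 233 CPM in young WT, and Smc2, its partner, at 67.3 CPM in adult Lang-DTA, 31.4 CPM in adult WT and 44.5 CPM in young WT. Securin, Pttg1, was at 54.6 CPM in adult Lang-DTA, 75.2 CPM in adult WT and 53.9 CPM in young WT, lower in adult Lang-DTA than in adult WT, and Cks2, a Cdk binding subunit, at 66.5 CPM in adult Lang-DTA, 17.1 CPM in adult WT and 28.8 CPM in young WT. Slbp, which binds histone mRNA, was at 98.1 CPM in adult Lang-DTA, 76.6 CPM in adult WT and 55.8 CPM in young WT, and Atad2, a chromatin ATPase, at 113 CPM in adult Lang-DTA, 35.3 CPM in adult WT and 40.6 CPM in young WT. Orc6, of the origin recognition complex, was at 78.4 CPM in adult Lang-DTA, 45.3 CPM in adult WT and 51.8 CPM in young WT, and Dut, a dUTPase, at 42.4 CPM in adult Lang-DTA, 39.9 CPM in adult WT and 40.6 CPM in young WT. In T cells 40 other mitosis genes and 9 other replication genes were at least 2-fold lower in adult WT than in young WT, against 4.14% of all genes. In keratinocytes 0 and 0 were.

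Genes that act before S phase went both ways in lymphatic cells. Cyclin D1, Ccnd1, was at 229 CPM in adult Lang-DTA, 103 CPM in adult WT and 149 CPM in young WT, and its kinase Cdk4 at 147 CPM in adult Lang-DTA, 59.8 CPM in adult WT and 90.8 CPM in young WT. Cyclin D2, Ccnd2, was at 114 CPM in adult Lang-DTA, 194 CPM in adult WT and 135 CPM in young WT, and Cdk6 at 51.5 CPM in adult Lang-DTA, 88.6 CPM in adult WT and 131 CPM in young WT. The first pair was higher and the second lower in adult Lang-DTA than in adult WT. Of the inhibitors, Cdkn1a (p21) was at 817 CPM in adult Lang-DTA, 340.4 CPM in adult WT and 213 CPM in young WT. In adult Lang-DTA it was at 614 CPM in cycling cells and 840.4 CPM in the rest. Btg2, an antiproliferative factor, was at 597 CPM in adult Lang-DTA, 1134 CPM in adult WT and 965 CPM in young WT, and Tob1, of the same family, at 126 CPM in adult Lang-DTA, 296 CPM in adult WT and 212 CPM in young WT. Cdkn1b (p27) was at 142 CPM in adult Lang-DTA, 163 CPM in adult WT and 190.4 CPM in young WT.

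Cycling cells of adult Lang-DTA had other levels of cell state genes than the rest of their gate, of which those below were named after their values were seen. In the lymphatic gate, neurotensin, Nts, was at 892 CPM in cycling cells and 486 CPM in the rest, and Angpt2, a vessel ligand, at 193 CPM in cycling cells and 399 CPM in the rest. Lyve1, a hyaluronan receptor of lymphatic capillaries, was at 1596 CPM in cycling cells and 1211 CPM in the rest. In the blood endothelial gate, apelin, Apln, was at 607 CPM in cycling cells and 167 CPM in the rest, and the venous selectin Selp at 406 CPM in cycling cells and 2049 CPM in the rest. In adult WT the same genes were at 60.7 CPM in cycling cells and 55.3 CPM in the rest for Apln, and 1704 CPM in cycling cells and 2581 CPM in the rest for Selp. Those adult WT values rest on 48 cycling cells, of which 33 lacked the other listed genes and whose keratinocyte markers were higher than over the gate, as given above, so they are not set against adult Lang-DTA. The adult Lang-DTA cycling cells share this limit. In the blood endothelial gate 14 of 53 lacked the other listed genes. Keratinocyte markers summed there to 2067 CPM in cycling cells and 814 CPM over the gate. In the lymphatic gate of adult Lang-DTA they summed to 1398 CPM and 653 CPM. The part of mixed droplets in these cell state levels was not tested. In keratinocytes of adult Lang-DTA, Krt10, a keratin above the basal layer, was at 423 CPM in cycling cells and 1292 CPM in the rest, and basal Krt5 at 4732 CPM in cycling cells and 5142 CPM in the rest.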

How the data were processed

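Per the file headers, the authors deposited raw UMI counts per gene and called barcode for each library, and the values are not normalized. Per the submitters' processing notes they came from Cell Ranger 8.01 (8.0.1 in the headers) on GRCm38. Not given in the sources used here are the annotation release, whether intronic reads were counted and whether free RNA was removed. Barcodes were kept if they had 500 genes or more, 1000 UMIs or more and no more than 10% mitochondrial UMIs. UMIs were summed per gate and library and scaled to 1000000 (CPM). A gene entered counts of 2-fold differences with at least 30 UMIs over both libraries. Shares have Clopper-Pearson intervals, levels exact Poisson intervals and ratios exact conditional intervals. Cells were called male or female with at least 2 UMIs of genes specific to one sex. Calculations were tested on simulated data and run in Python 3.11.15 (numpy 2.4.6; scipy 1.17.1; pandas 2.3.3; matplotlib 3.10.9). Genes named were all helicase genes in lymphatic cells, the 4 most abundant of each role in a gate, and genes that ran against their role or had the 3 highest or 3 lowest ratios, with fewer named in other gates. The listed genes, other lists and motifs were chosen with earlier results of these data known.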

Additional observations from a re-analysis of the deposited data

Results flagged for a closer look

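The share of cycling cells ran in opposite directions between genotypes in 2 gates. In lymphatic endothelial cells it was higher in adult Lang-DTA than in adult WT (log2 ratio 3.33), and in keratinocytes it was lower (log2 ratio -0.45). At equal depth the keratinocyte log2 ratio was -0.19 (interval -0.48 to 0.10), and its interval also included 0 in male-called and in female-called cells, so the opposite direction in keratinocytes did not hold beyond counting error there. The difference between the gates was not tested, since each condition is 1 library, and both ratios use the same libraries.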

How the results depend on the processing

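No paired analysis was possible because each condition is 1 library with no replicate. The data are limited by 1 pool per condition, few cycling cells in the adult WT lymphatic, fibroblast and chondrocyte gates, and gates set by 1 to 2 genes, so that mixed droplets count as cells. Of the share ratios 85 of 100 alternative values stayed within the counting interval. The others follow as log2 ratios, with genotype meaning adult Lang-DTA over adult WT and age adult WT over young WT. The cause was not tested. In lymphatic cells of 1 gate only the share ratios were 5.02 (genotype) and -3.49 (age). In blood endothelial cells the genotype ratio was 1.44 with at least 5 UMIs, 1.54 thinned, 1.78 with both criteria, 1.44 in female-called and -0.49 in male-called cells, and the age ratio -1.87 with both criteria and -1.79 in female-called cells. Thinning gave -0.19 for genotype in keratinocytes, with an interval that includes 0. In T cells the age ratio was -1.26 with at least 2 UMIs, -2.24 in male-called cells and -0.73 by other listed genes alone, which gave -0.63 for genotype in T cells and -0.65 for age in the Cd207 gate.

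Counting intervals of the summed level are narrow and most alternatives left them. In lymphatic cells the age ratio was -0.43 with median-of-ratios scaling, -0.39 with cells weighted equally, -0.85 in 1 gate only and -0.76 in female-called cells, and the genotype ratio 1.34 with equal weight, 1.81 in 1 gate, 1.47 in female-called and 1.71 in male-called cells. In blood endothelial cells the age ratio was -0.24 with scaling, -0.58 in 1 gate, -0.66 in female-called and -0.39 in male-called cells, and the genotype ratio 0.44 with scaling, 0.31 with equal weight, 0.64 in 1 gate, 0.93 in female-called and 0.094 in male-called cells. In keratinocytes the age ratio was 0.15 with scaling, -0.020 with equal weight (reversed), 0.0033 in 1 gate, 0.075 in female-called and 0.088 in male-called cells, and the genotype ratio -0.19 with equal weight, 0.039 in female-called (reversed) and -0.43 in male-called cells. In fibroblasts the age ratio was -0.26 with scaling, -1.07 in female-called and -0.25 in male-called cells, and the genotype ratio 0.74 in 1 gate, 0.71 in female-called and 0.53 in male-called cells. In chondrocytes the age ratio was 0.62 in 1 gate, -0.70 in female-called and -0.33 in male-called cells, and the genotype ratio -0.17 with equal weight, 0.13 in female-called (reversed) and -0.34 in male-called cells. In T cells, in the order scaling, equal weight, 1 gate, female-called, male-called, the age ratios were -0.87, -0.85, -1.07, -0.75 and -1.31, and the genotype ratios -0.28, -0.15, -0.15, -0.36 and -0.27. In the Cd207 gate the age ratios in that order were -0.68, -0.64, -0.67, -0.50 and -0.97.

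Counts of genes at least 2-fold apart that left 1.5 times the reported count were, for genes lower between ages, 31 of 45 in blood endothelial cells of 1 gate only and 13 of 42 in female-called cells of the Cd207 gate, and for genes higher between genotypes 6 of 37 in male-called blood endothelial cells. In fibroblasts the age count was 5 of 18 genes tested in 1 gate, 17 of 35 with equal weight, 16 of 45 with no UMI floor and 0 of 12 in male-called cells, against 10 of 35 as reported. For genotype in T cells 1 gene was lower in 1 gate, with equal weight and in female-called cells, and 5 of 40 in male-called cells. Shares of all genes are not given here for equal weight, for no UMI floor or for the counts of 1 gene. Those counts are therefore not read as results about the list. Median-of-ratios scaling moved the age ratios of all genes by 0.12 at most in the gates compared. Some shares of fibroblasts and chondrocytes gave no value, as too few cycling cells were left.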
